A study of Gallus gallus with 10 samples.

Results

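TLR1B (ENSGALG00000027093) and NFKBIZ (ENSGALG00000015346) are 2 of the 11324 genes counted in the chick preoptic anterior hypothalamus (PO/AH) after injection of a miR-200a mimic. They were taken by identifier, and they were chosen because their counts differed between the mimic and naïve libraries described here. Their differences between these groups are therefore given as a description, without a test. Both were among the 8585 genes that passed the filter on low counts.

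TLR1B encodes a Toll-like receptor, a membrane receptor of innate immune cells that recognizes microbial molecules. In the chicken, receptors of the TLR1 type act together with receptors of the TLR2 type, of which TLR2A is a member, to recognize bacterial lipoproteins. Signals from Toll-like receptors pass through adaptor proteins and kinases to the transcription factor NF-κB. NFKBIZ encodes IκBζ, an inducible nuclear member of the IκB family. In mice, IκBζ is induced by Toll-like receptor and interleukin-1 signals and is needed for the induction of a second wave of inflammatory genes, such as that of interleukin-6. In the brain, Toll-like receptors are best known from microglia, the resident macrophages.

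The mimic group held 5 libraries from Cobb broiler chicks that received the hsa-miR-200a-3p mimic, a synthetic duplex made to work as that microRNA, at 3 days of age and were sampled 6 h later. The naïve group held 5 libraries from chicks of the same strain and age that were not injected, so injection and mimic cannot be told apart. No library from chicks injected with a control mimic was analysed here, and no source used here gives the number of chicks per library, so p-values measure only the spread between these libraries. Libraries were made by bulk MARS-seq, in which each transcript is tagged at its 3′ end with a unique molecular identifier (UMI), so that molecules are counted.

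Total counts were 3598695 to 4511597 in the mimic libraries and 2104121 to 5503185 in the naïve libraries. The smallest library was naïve library 7, in which 1 count was worth 0.507 CPM (counts per 1000000, with TMM-scaled totals) where it was worth 0.175 to 0.280 CPM elsewhere. Naïve library 7 also held 53 counts of the folate receptor gene FOLR1, which marks the choroid plexus, where the other naïve libraries held 1 to 4 and the mimic libraries 0 or 1, so TLR1B, NFKBIZ and the pathway genes with a high value there are also given without it. Naïve libraries 3 and 6 stood apart in SLC6A13, a transporter gene of the meninges, with 75 and 68 counts, where every other library held 0 to 2. None of the 13 listed hypothalamic markers could be matched to an identifier, and of the neuronal markers only RBFOX3 could, at 53.2 to 111 CPM in mimic and 91.2 to 138 CPM in naïve libraries. Over all genes tested, edgeR's quasi-likelihood test called 12 genes higher in mimic libraries (0.14% of genes) and 2 lower (0.0233%). A call needed an adjusted p under 0.05, at least a 1.5-fold difference and 30 counts in some library.

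TLR1B counts were 37, 44, 49, 14 and 27 in mimic libraries 2, 4, 6, 9 and 10, against 14, 13, 10, 5 and 7 in naïve libraries 2, 3, 4, 6 and 7. Scaled to library size, these were 10.4, 11.5, 11.1, 3.23 and 6.99 CPM in the mimic libraries and 2.53, 2.28, 2.67, 0.963 and 3.55 CPM in the naïve libraries. The groups overlapped through mimic library 9 alone, which lay below naïve library 7 and above the other naïve libraries. The mean was 8.64 ± 3.50 CPM after the mimic and 2.40 ± 0.934 CPM in naïve chicks (SD, n = 5 each). This was a fitted log2 fold change of 1.91, or 3.76-fold. By that measure TLR1B ranked 12 of 8585, and 0.128% of genes had a larger log2 fold change.

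NFKBIZ counts were 44, 23, 19, 36 and 27 in mimic libraries 2, 4, 6, 9 and 10, against 19, 21, 19, 17 and 4 in naïve libraries 2, 3, 4, 6 and 7. These corresponded to 12.3, 6.00, 4.31, 8.32 and 6.99 CPM in the mimic libraries and 3.43, 3.68, 5.07, 3.27 and 2.03 CPM in the naïve libraries. Here the overlap came from mimic library 6, which lay below naïve library 4, whereas mimic library 9 was the second highest of all. The mean was 7.59 ± 3.03 CPM after the mimic and 3.50 ± 1.09 CPM in naïve chicks (SD, n = 5 each). The fitted log2 fold change was 1.07, or 2.1-fold, and ranked 40 of 8585.

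**Figure D1:**
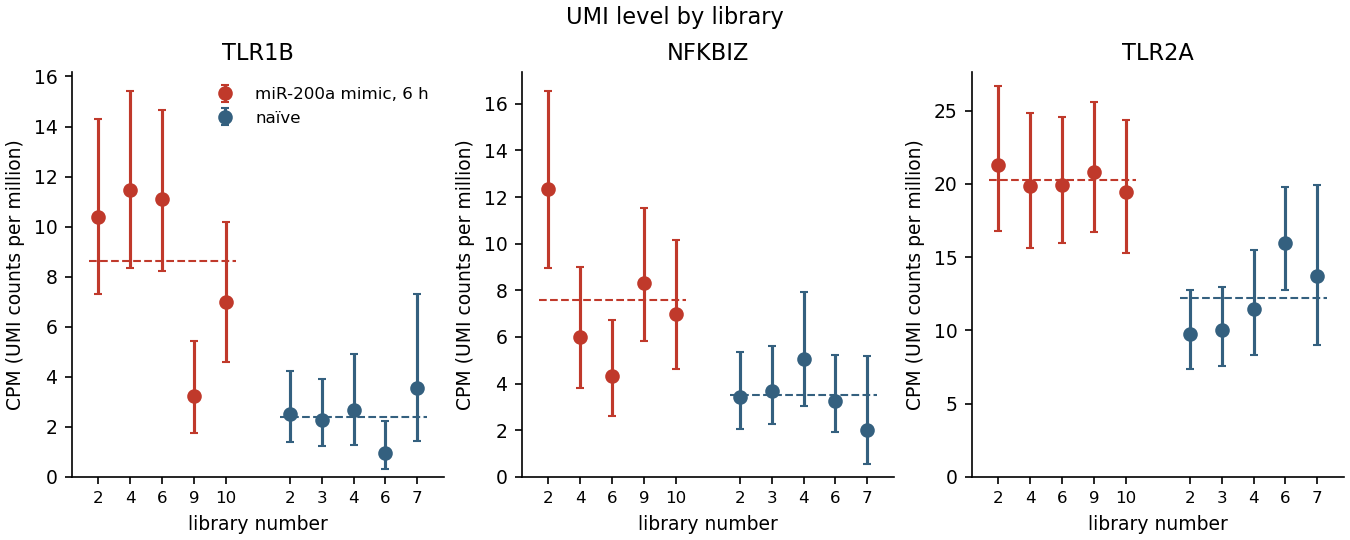
CPM of TLR1B, NFKBIZ and TLR2A in each library, with 95% Poisson intervals for counting error as bars and group means as dashed lines, for the 5 mimic libraries (red) and the 5 naïve libraries (blue). TLR1B was low in mimic library 9 (3.23 CPM) and NFKBIZ in mimic library 6 (4.31 CPM), while all mimic libraries of TLR2A lay between 19.4 and 21.3 CPM.

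For both genes, 4 of 5 mimic libraries exceeded all naïve libraries. The share of all genes with 4 of 5 mimic libraries above is not given here. Under the stricter criterion of every mimic library above every naïve library, the share was 1.09% of genes tested, and neither TLR1B nor NFKBIZ was among them. A log2 fold change of 1 or more, which both genes had, was found in 0.559% of genes tested. Since the genes were chosen on this contrast, nothing is read from these shares.

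The counts of both genes were low, and counting error alone was large. In naïve chicks the coefficient of variation of the TLR1B level was 39.0%, where counting a mean library would give about 31.9%. That of the NFKBIZ level was 31.0%, where counting a mean library would give about 25%. With the depth of each naïve library taken into account, the spread of NFKBIZ was no larger than counting would give. After the mimic it was 40.6% for TLR1B and 39.9% for NFKBIZ, where counting would give about 17.1% and 18.3%. The spread among mimic libraries was thus larger than counting would give, for either gene. The 95% Poisson interval of TLR1B in mimic library 9 was 1.77 to 5.43 CPM, below those of mimic libraries 2, 4 and 6, which began at 7.30 CPM or more. For NFKBIZ, the interval in mimic library 2 (8.96 to 16.6 CPM) lay above that in mimic library 6 (2.59 to 6.72 CPM). These intervals cover counting error only.

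Leaving out mimic library 9 gave a TLR1B log2 fold change of 2.12, and leaving out naïve library 6, in which TLR1B was lowest, gave 1.69. Leaving out mimic library 2, in which NFKBIZ was highest, gave an NFKBIZ log2 fold change of 0.83. Without naïve library 7 the values were 2.03 for TLR1B and 0.98 for NFKBIZ. Without naïve library 3 they were 1.90 and 1.08, and NFKBIZ had 1.04 without naïve library 6. The direction was the same whichever single library was left out.

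Of the 13 symbols listed for Toll-like receptors, only TLR1B and TLR2A could be matched to an identifier in the counts. TLR2A (ENSGALG00000034722), which encodes a TLR2-type receptor, was at 21.3, 19.8, 19.9, 20.8 and 19.4 CPM in mimic libraries 2, 4, 6, 9 and 10. It was at 9.76, 9.995, 11.5, 16.0 and 13.7 CPM in naïve libraries 2, 3, 4, 6 and 7. Every mimic library lay above every naïve library, and the mimic libraries lay close together. The means were 20.3 ± 0.763 CPM after the mimic and 12.2 ± 2.64 CPM in naïve chicks (SD, n = 5 each). The log2 fold change of 0.74 (standard error 0.17) did not pass edgeR's test over all genes (adjusted p = 0.151), whereas DESeq2 at the settings of the study gave an adjusted p of 0.0158. Without naïve library 7 it was 0.78 (adjusted p = 0.119 from edgeR). Leaving out naïve library 6, the highest naïve library for TLR2A, gave 0.87 (adjusted p = 0.108 from edgeR).

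The libraries lowest in TLR1B were not low in TLR2A. Mimic library 9, with the lowest TLR1B level of its group, had 90 TLR2A counts. This was 20.8 CPM, within the mimic range of 19.4 to 21.3 CPM. Naïve library 6, with the lowest TLR1B level of all, had 83 TLR2A counts, or 16.0 CPM, the highest naïve value. Per 100 TLR2A counts there were 48.7, 57.9, 55.7, 15.6 and 36.0 TLR1B counts in mimic libraries 2, 4, 6, 9 and 10. In naïve libraries 2, 3, 4, 6 and 7 there were 25.9, 22.8, 23.3, 6.02 and 25.9. The mean was 42.8 ± 17.4 after the mimic and 20.8 ± 8.38 in naïve chicks (SD, n = 5 each), a ratio of 2.06. The mimic libraries lay above the naïve ones except for library 9. Because TLR1B was chosen on this contrast, this ratio is a description only. In the RefSeq annotation of GRCg7b, TLR1B lies next to TLR1A and TLR2A next to the second TLR2-type gene. The similarity of the 3′ ends of these neighbours was not examined here. If they are alike, reads could have been split between neighbours or left out, and the TLR1B and TLR2A counts are uncertain to that extent.

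Downstream of the receptors, PELI1 and HSP90B1 were the only identifiable genes of the 27 listed for adaptors and signaling. PELI1 (ENSGALG00000008837) encodes Pellino-1, a ubiquitin ligase that acts with IRAK kinases in Toll-like receptor and interleukin-1 receptor signaling. Its level was 52.9 to 73.1 CPM in the mimic libraries and 48.3 to 50.7 CPM in the naïve libraries, without overlap. The PELI1 log2 fold change, 0.38 with a standard error of 0.12, did not pass (edgeR, adjusted p = 0.428). Without naïve library 7, the highest naïve library for PELI1, it was 0.39 (edgeR, adjusted p = 0.316). HSP90B1 (ENSGALG00000033789) encodes an endoplasmic reticulum chaperone that many Toll-like receptors need for folding in mice. It was at 485 ± 62.7 CPM after the mimic and 361 ± 59.5 CPM in naïve chicks (SD, n = 5 each), which was 0.43 on the log2 scale (edgeR, adjusted p = 0.392). Its highest naïve value, 463 CPM, was that of library 7, and 3 of 5 mimic libraries lay above it. Without that library the HSP90B1 difference was 0.53 on the log2 scale (edgeR, adjusted p = 0.0696).

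NFKBIZ was the only identifiable gene among the 20 listed for NF-κB and IκB proteins, and none of the 10 listed for the interleukin-1 receptor family could be identified. The other genes of these lists were not analysed here.

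Of the 28 listed inflammatory target genes, 5 were identifiable and 4 were tested. SOCS3 (ENSGALG00000027786), a feedback inhibitor of cytokine receptor signaling, was at 60.5, 9.39, 28.8, 5.31 and 40.7 CPM in mimic libraries 2, 4, 6, 9 and 10. The naïve libraries held 1.08 to 5.07 CPM, the highest in library 7. All mimic libraries lay above this, but library 9 did so narrowly. The fitted difference was 3.83 on the log2 scale, with a standard error of 0.71 (edgeR, adjusted p = 0.0688). It passed the threshold without mimic library 4 (adjusted p = 0.0292) or 9 (adjusted p = 0.0133, both from edgeR). Without naïve library 7 the value was 4.15 (edgeR, adjusted p = 0.101).

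LCN15 (ENSGALG00000043064), a lipocalin gene, was at 82.5 to 428 CPM in mimic libraries and 12.3 to 83.7 CPM in naïve libraries. The LCN15 groups overlapped only through mimic library 4 and naïve library 7. It differed by 3.09 on the log2 scale, with a standard error of 0.67 (edgeR, adjusted p = 0.229), and by 3.75 without naïve library 7 (edgeR, adjusted p = 0.0555). CSF1 (ENSGALG00000033854), a growth factor of macrophages and microglia, was at 7.77 to 16.0 CPM after the mimic and 3.55 to 7.12 CPM in naïve chicks. The CSF1 log2 fold change was 0.88 (edgeR, adjusted p = 0.325). The interferon-induced factor gene IRF1 (ENSGALG00000006785) was at 8.61 to 13.6 CPM after the mimic and 5.34 to 8.11 CPM in naïve chicks. This was a difference of 0.73 in log2 (edgeR, adjusted p = 0.343). Without naïve library 7, the highest naïve library for IRF1, it was 0.79 (edgeR, adjusted p = 0.244). For CSF1 and IRF1 the groups did not overlap.

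CXCL13L3 (ENSGALG00000029532), named as a CXCL13-like chemokine, fell below the count filter. It had 1, 3, 14, 1 and 6 counts in mimic libraries 2, 4, 6, 9 and 10 and a single count, in library 4, over the naïve libraries. Over each group this was 25 counts against 1, a ratio of 27.7 with a 95% counting interval of 4.53 to 1137. Of the mimic counts, 14 lay in library 6, so the ratio compares these libraries rather than the conditions.

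With TLR1B and NFKBIZ left out, 7 genes of the pathway lists were tested, and edgeR called 0 of them in either direction. All 7 had an unadjusted p under 0.05 in the edgeR test, as did 7.45% of all genes tested. All 7 had a higher mean after the mimic, with a median log2 fold change of 0.74, where the median over all genes tested was −0.00. DESeq2 at the settings of the study called 3 of the 7, namely TLR2A, SOCS3 and LCN15, and it called 0.419% of all genes higher. All of these genes could be named only because the study listed them as higher on these same libraries. Their p-values, their calls and their common direction are therefore not independent evidence, and nothing is read from the shares beside them.

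**Figure D2:**
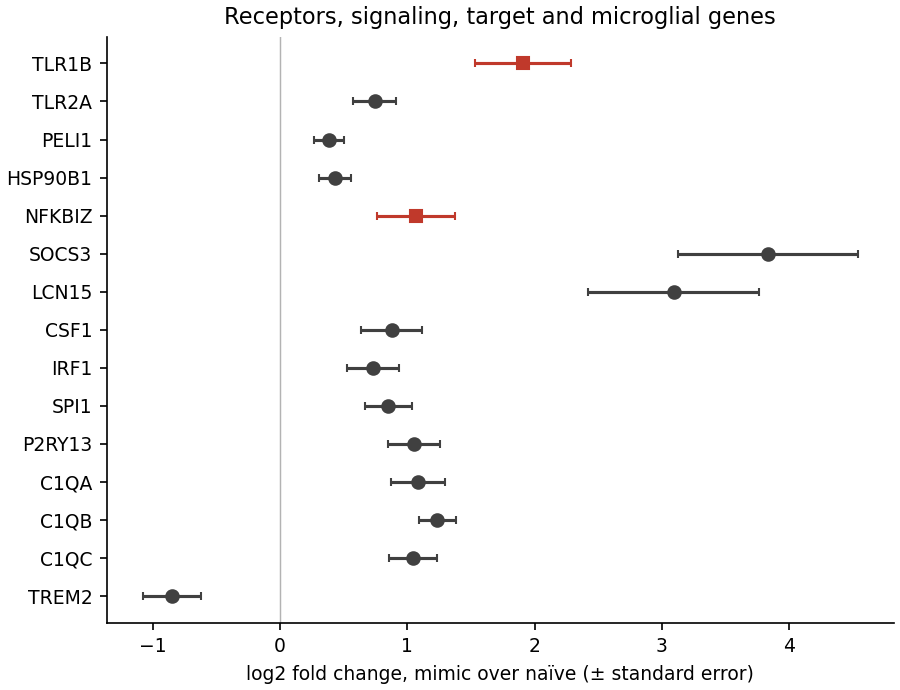
Log2 fold changes of the mimic group over the naïve group (n = 5 libraries each). TLR1B and NFKBIZ are red squares, and identifiable signaling, target and microglial genes are grey circles. Bars are standard errors, taken as the log2 fold change divided by the square root of edgeR's F statistic. For TLR1B and NFKBIZ no test is read from the bars. TLR1B stood at 1.91, NFKBIZ at 1.07 and TLR2A at 0.74, while TREM2 stood below 0, at −0.85.

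Of the 16 listed markers of microglia and macrophages, 6 were identifiable, and edgeR called 2 of them higher after the mimic, where it called 0.14% of all genes higher. The summed level of the 6 markers was 158 to 222 CPM in mimic libraries and 80.5 to 117 CPM in naïve libraries, a ratio of means of 1.83. C1QB and C1QC, which encode chains of the complement component C1q, rose, with log2 fold changes of 1.24 and 1.04 (edgeR, adjusted p = 0.00346 and 0.0460). C1QA had 1.08, the purine receptor gene P2RY13 had 1.05 and the myeloid transcription factor gene SPI1 had 0.85 (adjusted p = 0.0633, 0.0633 and 0.109 from edgeR). TREM2, a lipid receptor of microglia, had −0.85 (adjusted p = 0.320 from edgeR). These markers, too, had a symbol only through the gene lists that the study drew from these libraries, so their directions and calls are not independent evidence. The 4 identifiable markers of choroid plexus and meninges summed to 24.3 to 38.8 CPM in mimic and 46.1 to 98.4 CPM in naïve libraries. Part of the naïve sums came from FOLR1 in library 7 (26.9 CPM) and SLC6A13 in libraries 3 and 6 (13.2 and 13.1 CPM). Both genes fell below the count filter. FXYD2, a regulator of the sodium pump, fell to 1.51 ± 0.940 CPM after the mimic, against 9.54 ± 2.15 CPM in naïve chicks (SD, n = 5 each). Its log2 fold change was −2.62 (edgeR, adjusted p = 0.00707), and that of RARRES2, the remaining marker, was −0.64 (edgeR, adjusted p = 0.324). Choroid plexus and meningeal markers, too, had symbols only through the tables of the study, so their common direction and the call of FXYD2 are not independent evidence. No marker of heterophils, other blood cells, astrocytes, oligodendrocytes or endothelium was identifiable. In whole tissue, more cells of a type and more RNA per cell cannot be told apart.

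Per 1000 counts of these 6 markers, TLR1B had 46.6 ± 18.7 counts after the mimic and 24.3 ± 9.23 in naïve chicks (SD, n = 5 each), a ratio of 1.91. The mimic libraries held 50.6, 72.0, 50.1, 20.4 and 39.9 (libraries 2, 4, 6, 9 and 10), and the naïve libraries 31.0, 28.3, 22.9, 8.88 and 30.6 (libraries 2, 3, 4, 6 and 7). Mimic library 9 was again the only one below the highest naïve library. NFKBIZ had 41.9 ± 15.6 counts after the mimic and 35.8 ± 11.9 in naïve chicks (SD, n = 5 each), a ratio of 1.17 with 2 of 5 mimic libraries above all naïve ones. TLR2A had 112 ± 16.5 after the mimic and 122 ± 17.5 in naïve chicks (SD, n = 5 each), a ratio of 0.922. The SD ranges of the groups overlapped for each of these genes. TLR1B and NFKBIZ were chosen on this contrast, and TLR2A and the markers had symbols only through the study's lists from these libraries. The summed markers were higher after the mimic (ratio of means 1.83), and dividing by them lowers every ratio. The ratios of all 3 genes are therefore a description only, and whether any of them followed microglia was not tested. Relative to SPI1 and P2RY13 alone, the ratios were 1.80 for TLR1B, 1.12 for NFKBIZ and 0.881 for TLR2A. The part of microglia, choroid plexus or meninges in these differences was not tested.

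**Figure D3:**
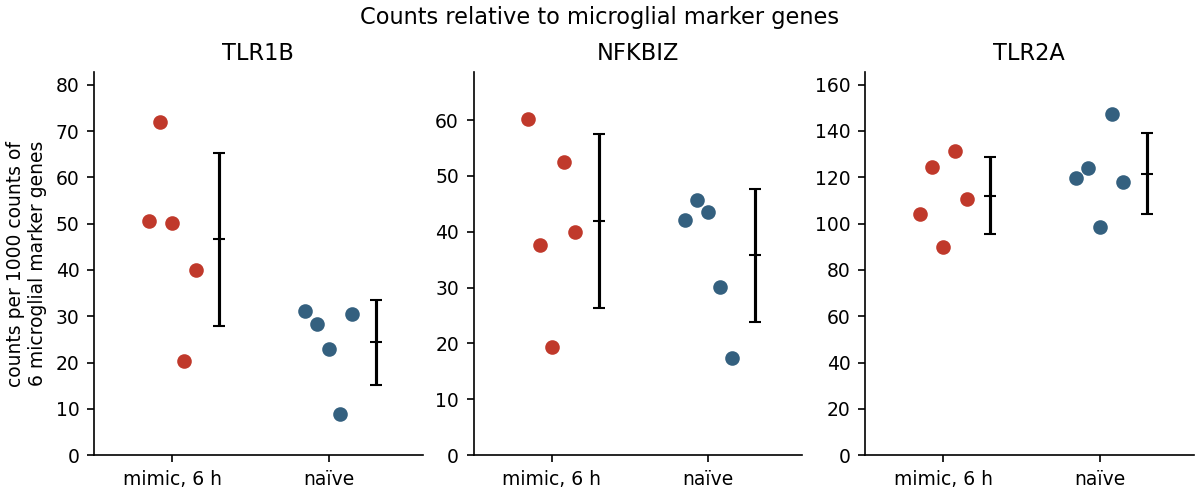
Counts of TLR1B, NFKBIZ and TLR2A per 1000 counts of the microglial markers SPI1, P2RY13, TREM2, C1QA, C1QB and C1QC in each library (points), with mean and SD beside them (n = 5 per group). The mean ratio of mimic to naïve was 1.91 for TLR1B, 1.17 for NFKBIZ and 0.922 for TLR2A.

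Whether TLR1B and NFKBIZ varied together was examined on the deviations of log2 CPM from the group means, which do not use the difference between the groups. Over 10 libraries Pearson's r was −0.25 (exact permutation test within groups, two-sided, p = 0.531) and Spearman's rho was −0.42 (exact permutation test, p = 0.272). Without mimic library 9 and naïve library 6, the farthest from the median of TLR1B, Pearson's r was −0.39 (exact permutation test, p = 0.323) over 8 libraries. No joint variation was detectable with this number of libraries and counts this low. Among naïve libraries, chi-squared per degree of freedom against counting at each library's depth was 1.47 for TLR1B and 0.948 for NFKBIZ. A value near 1 is what counting alone would give, which limits any correlation there. In mimic library 6 TLR1B deviated by 0.46 and NFKBIZ by −0.68, and in mimic library 9 TLR1B deviated by −1.18 and NFKBIZ by 0.20. Mimic library 2 was above the group mean for both genes.

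**Figure D4:**
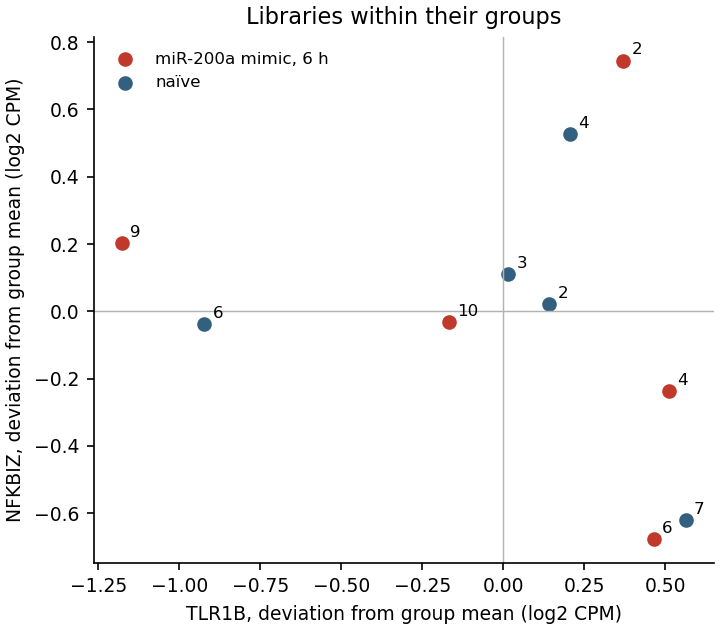
Deviation of each library from its group mean in log2 CPM, TLR1B on the horizontal and NFKBIZ on the vertical axis, for the 5 mimic (red) and 5 naïve (blue) libraries, labelled with library numbers. Of the libraries low in TLR1B, mimic 9 was above the group mean of NFKBIZ (0.20) and naïve 6 was near it (−0.04). The libraries low in NFKBIZ (mimic 6 and naïve 7) were above the group mean of TLR1B. Counting intervals of naïve 6 for TLR1B and of naïve 7 for NFKBIZ overlapped those of the other naïve libraries.

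The genes with the pattern most like that of TLR1B were sought by Pearson's r of log2 CPM over the 10 libraries, among 8584 genes. PELI1 ranked first (r = 0.92) and PSPH, an enzyme of serine synthesis, second (r = 0.91). Of genes with a symbol, the transcription factor gene KLF2 (r = 0.89), the ribosomal protein gene RPL30 (r = 0.88) and the forkhead factor gene FOXK2 (r = 0.87) came next. TLR2A had r = 0.64 and NFKBIZ r = 0.53, at ranks 342 and 708. These values include the difference between the groups, for which most genes with a symbol were chosen.

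On the deviations from group means, the gene most like TLR1B was ENSGALG00000005549 (r = 0.96), which has no symbol in the tables. Among genes with a symbol, the homeobox gene Gbx-1 (r = 0.84) was first, at rank 39 of all genes. PELI1 and PSPH (r = 0.75 and 0.73), the homeobox gene DLX2 (r = 0.73) and RPL30 (r = 0.73) were next among them. PELI1 was thus at rank 127 once the groups were centred, and TLR2A had r = −0.33. In mimic library 9, PELI1 was at 52.9 CPM, the lowest of the mimic libraries, as TLR1B was.

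The pattern of NFKBIZ had other neighbours. Over the 10 libraries, the genes with a symbol most like it were PLSCR1, a phospholipid scramblase (r = 0.89), CSF1 (r = 0.88), TMED10, a cargo receptor of the secretory pathway (r = 0.88), the transcription factor gene STAT6 (r = 0.86) and GABARAP, an autophagy gene (r = 0.85). On deviations, ENSGALG00000027418 was first (r = 0.93). Of genes with a symbol, the ubiquitin ligase gene RNFT1 (r = 0.80), CSF1 (r = 0.71), PLSCR1 (r = 0.70) and TMED10 (r = 0.69) came highest. Their ranks among all 8584 genes were 29, 97, 110 and 122. CSF1 was at 16.0 CPM in mimic library 2 and 3.55 CPM in naïve library 7, the libraries in which NFKBIZ was highest and lowest. In naïve library 7, the smallest, these levels rested on 7 counts of CSF1 and 4 of NFKBIZ. All of these correlations are over the same 10 libraries of unequal depth and are given as a description.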

How the data were processed

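The deposited values were UMI counts per gene. To make them, the authors ran cutadapt, STAR with the galGal5 genome and HTSeq on gene 3′ ends, collapsed reads by UMI and applied a saturation correction. No source used here gives the tool versions. The 10 columns of normalized counts of the same libraries were not used. Columns were assigned to groups by the condition in their names. Symbols came from the supplementary tables of the study, which named 137 of the 11324 genes, and no sequence was used here.

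The test was that of edgeR 4.0.16 under R 4.3.3 (filterByExpr with a minimum count of 10, TMM, robust quasi-likelihood test, two-sided, Benjamini-Hochberg over 8585 genes). Standard errors were the log2 fold change divided by the square root of the F statistic of that test. Log2 CPM used a prior count of 2. The code was tested on simulated data. Alternatives used DESeq2 1.42.0, limma 3.58.1, other factors and filters, and each library left out. DESeq2 at default settings and the ratios to microglial counts were chosen after seeing the data. The named genes were TLR1B, NFKBIZ, identifiable list members and, per gene and measure, the 5 named genes of highest correlation, with 2 identifiers without a symbol. A gene that this rule selects is not reported here. Members and lists were chosen with earlier results of these data known.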

Additional observations from a re-analysis of the deposited data

Results flagged for a closer look

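A library stood far from the 4 others of its group in 4 of 24 sets of values examined. A chance rate of about 1 set in 20 holds for independent sets of normally distributed values. These sets shared libraries and some held very low counts, so no excess over chance is read from the 4. In 3 of them it was naïve library 7, the smallest library. It held 463 CPM of HSP90B1 (next highest naïve value 355), 83.7 CPM of LCN15 (next 29.6) and 5.07 CPM of SOCS3 (next 2.13). The fourth was CXCL13L3, at 0.267 CPM in naïve library 4 from a single count and at 0 in each other naïve library. With 0 elsewhere, any single count would have been flagged. No such library was found for the CPM of TLR1B, NFKBIZ or TLR2A in either group. The 4 are not a full tally of values that stood apart. FOLR1 in naïve library 7 (26.9 CPM, next highest naïve value 0.723) is not among them. Nor is the value of TLR1B per 100 TLR2A counts in naïve library 6 (6.02, next lowest naïve value 22.8).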

How the results depend on the processing

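The TLR1B log2 fold change of 1.91 ranged from 1.69 to 2.12 with each library left out, and that of NFKBIZ, 1.07, from 0.83 to 1.22. With other scaling factors, DESeq2 or the ratio of group means, neither moved beyond the spread between libraries. Relative to microglial marker counts the values were 0.94 for TLR1B and 0.23 for NFKBIZ, and relative to SPI1 and P2RY13 they were 0.85 and 0.16, since the markers themselves were higher after the mimic. The within-group correlation missed the threshold under every alternative (r from −0.51 to −0.08, exact permutation p from 0.175 to 0.843). The number of genes called higher, 12, was 36 with DESeq2 at the settings of the study and 36 at its default settings, 7 with a minimum count of 30, and 6 to 18 with a library left out (6 without naïve library 2, and 7 without naïve library 4 or 6). The number called lower, 2, was 5 with DESeq2 at either setting. Of the 7 other pathway genes, DESeq2 called 3 at either setting and limma-voom 1 (LCN15), and edgeR 0 to 1 with a library left out (SOCS3, without mimic library 4 or 9). The cause was not tested. SOCS3 did not pass the minimum count of 30. The adjusted p over the alternatives ranged from 0.0158 to 0.476 for TLR2A, from 8.66e-05 to 0.296 for SOCS3, from 0.00161 to 0.482 for LCN15, from 0.124 to 0.633 for CSF1, from 0.153 to 0.729 for IRF1, from 0.144 to 0.782 for PELI1 and from 0.0696 to 0.677 for HSP90B1. No paired analysis was possible because the count columns do not carry the replicate numbers of the labels. Depth was least in naïve library 7, with 4 counts of NFKBIZ and 7 of TLR1B. The lowest TLR1B count, 5, was in naïve library 6, which was deeper.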
